A study of Mus musculus with 5 samples.

Results

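The vacuolar proton pump and the acid-base transport genes of the mouse kidney were described across 19 annotated cell types and 5 single-cell libraries. They comprised 36 of the 17389 genes in the deposited matrix. Of these, 22 were chosen by symbol, as every gene whose name begins with Atp6v0 or Atp6v1, and 14 were listed by name: the accessory subunits Atp6ap1 and Atp6ap2, the transcription factor gene Foxi1, the bicarbonate and anion transporters Slc4a1, Slc4a4, Slc4a9 and Slc26a4, the sodium-proton exchanger Slc9a3, the carbonic anhydrases Car2, Car4, Car12 and Car15, and the ammonia transporters Rhcg and Rhbg. All 36 were found.

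Cells came from adult kidneys of wild type mice and of mutant littermates with a knockout (KO) of Fame, also known as Ccdc198 or 1700011H14Rik, on the FVB/Ant background. The mutant allele was made with CRISPR/Cas9, which placed stop codons behind the start codon, and the counts per gene used here hold no sequence with which to check it. The kidney tissue was dissociated with collagenase P and trypsin. There were 2 wild type libraries (WT female, WT mix) and 3 knockout libraries (KO female, KO male, KO mix), those called mix holding both sexes. The sources used here do not give the number of mice behind a library, so the p-values measure the spread between libraries. The annotation of the authors places WT female, KO female and KO male in run 2 and WT mix and KO mix in run 3, so the run and the mixing of sexes cannot be told apart.

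The matrix held 14197 cells and 60492486 unique molecular identifiers (UMIs, each standing for 1 captured RNA molecule), between 9791091 and 15950717 per library. Levels are given as CPM, the UMIs of a gene scaled to 1000000 UMIs, after summing the cells of a type in a library, with the mean and SD over the libraries that had at least 20 such cells. A 3′ tag is counted once per molecule, so these levels were not divided by gene length. Where 5 values stand in a row without names, they follow the sequence WT female, WT mix, KO female, KO male, KO mix. Library pairs shared between 0 and 5 cell barcodes. No pair of libraries of a genotype agreed within sampling noise (chi-square per degree of freedom of 121 or more), so none was counted as a repeat.

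The V-ATPase is a rotary pump that spends ATP to move protons across a membrane. Its V1 sector in the cytosol (subunits A to H) splits ATP, and its V0 sector in the membrane (subunits a, b, c, d and e) carries the protons. Every cell uses the pump to acidify lysosomes and endosomes, while intercalated cells of the collecting duct also place it on the cell surface, with isoforms of their own. Type A intercalated cells secrete acid into urine and return bicarbonate to blood through Slc4a1, whereas type B cells secrete bicarbonate through Slc26a4. The proximal tubule reclaims most filtered bicarbonate, with Slc9a3 at the lumen and Slc4a4 on the blood side.

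The type annotated as CD IC/CD Trans, the intercalated and transitional cells of the collecting duct, is where most of these genes peaked, and its label was checked first. It held 354 cells, between 49 and 92 per library. All 7 markers listed for intercalated cells, among them the members Atp6v1g3, Atp6v0d2, Slc4a1, Slc26a4 and Foxi1, were at their highest mean there. Of these markers, only Aqp6 (556 CPM) and Hmx2 (110) lie outside the members. The peak of the members there is no separate check of the label. The summed level of the 5 markers listed for principal cells in this type was between 1697 and 2980 CPM, and none of them was at 0. Each had its highest mean in the principal cells (CD PC), for instance Aqp2 with 3774 CPM there and 785 in this type. Red blood cell markers summed to between 5603 and 8655 CPM in the libraries of run 2, but to 0 (WT mix) and 4.56 (KO mix) in run 3. The summed markers of the proximal tubule were 540 CPM in WT female and 597 in KO female, and between 3227 and 3609 in the other 3 libraries, which hold male cells. Most of this sum was Kap, with a mean of 1772 CPM in this type, followed by Slc34a1 with 230. Whether Kap alone set the libraries apart was not tested, so the sums do not measure proximal RNA as a whole.

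Promoters of the pump genes are shown because the members fell into a group high mainly in the collecting duct and a group present in every cell type. RefSeq promoters (GRCm38.p6, 250 bases before to 50 after the start of transcription) were matched for 26 of the 36 members. Not matched were Atp6v0a2, Atp6v0d2, Atp6v1b2, Atp6v1c1, Atp6v1g1, Atp6v1h, Slc4a1, Slc4a9, Car2 and Rhbg. They were searched on both strands for TGTTTA, the core recognised by forkhead factors such as Foxi1, and for the palindrome CACGTG, an E-box within the motif of lysosomal genes. The forkhead core was present in the promoters of 2 members, Atp6v1b1 and Car12. That was 6.67% of the 30 member promoters, beside 13.4% of all 32851 promoters in the table. The E-box was present in those of 5 members, Atp6v0b, Atp6v0d1, Atp6v0e, Atp6v1a and Slc9a3. That was 16.7% of the member promoters, beside 7.15% of all promoters. The 150 bases before the start site are given 5′ to 3′ for the B1 subunit, the carbonic anhydrase Car12 and the c″ subunit Atp6v0b, with the motif in capitals. They lie at chr6:83742867-83743016 (plus strand), chr9:66713536-66713685 (plus strand) and chr4:117887330-117887479 (minus strand).
Atp6v1b1: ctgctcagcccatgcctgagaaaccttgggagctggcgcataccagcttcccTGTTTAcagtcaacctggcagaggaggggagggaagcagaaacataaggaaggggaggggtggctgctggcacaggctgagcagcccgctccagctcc
Car12: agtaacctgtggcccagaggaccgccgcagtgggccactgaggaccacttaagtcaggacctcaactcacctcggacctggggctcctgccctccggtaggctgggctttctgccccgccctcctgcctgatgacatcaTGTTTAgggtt
Atp6v0b: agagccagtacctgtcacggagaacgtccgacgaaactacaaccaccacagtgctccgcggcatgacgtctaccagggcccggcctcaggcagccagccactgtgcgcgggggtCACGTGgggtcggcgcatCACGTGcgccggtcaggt
All 3 genes had their highest mean in CD IC/CD Trans cells. A match to these letters is a description of the sequence and not a binding site.

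Of the 36 members, 23 had their highest mean in CD IC/CD Trans cells. Another 6 members peaked in the proximal tubule: Atp6v1b2, Atp6v1c1 and Slc4a4 in PTc, Atp6v1g1 and Atp6v1e2 in PT1, and Car4 in PTs. The rest peaked in the loop of Henle (LOH, Slc9a3 and Atp6v0a2), the principal cells (CD PC, Rhcg), or types with few libraries. Here PTc and PTs are the convoluted and straight proximal tubule, and PT1, PT2 and PTf are further proximal clusters. The 4 types of few cells were glomerular podocytes (Atp6v0a1), GL sc (Atp6v1g2), thin limb cells (Juxt ldl LOH, Atp6v0e2) and myeloid cells (Atp6v0d1). The authors derived the cell types from the same counts, so these levels are a description and were not tested between types. Summed over the 24 Atp6v and Atp6ap members, the mean was 18759 CPM in CD IC/CD Trans cells, 5773 in CD PC, 5459 in the distal convoluted tubule (DCT), 4309 in LOH and 4415 in PTc.

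**Figure D1:**
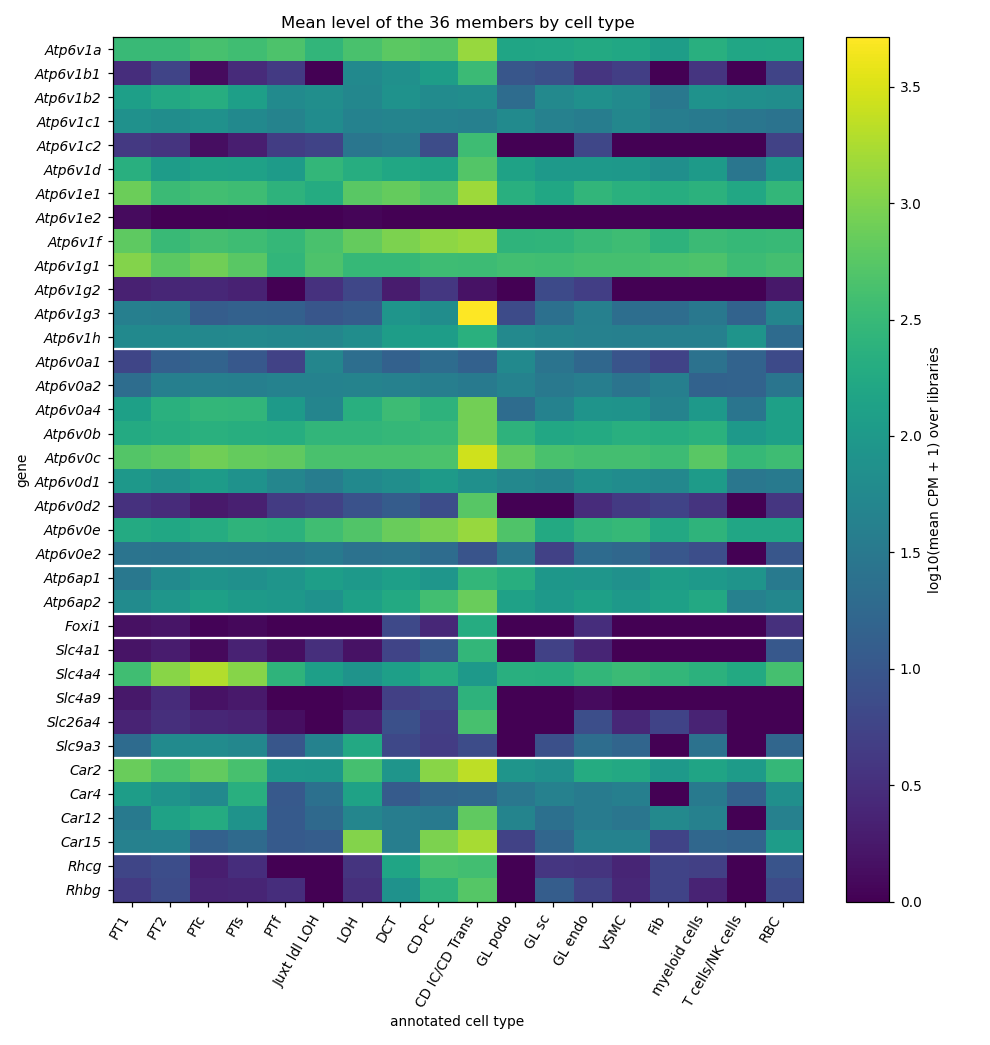
Mean level of each of the 36 members (vertical axis) in 18 annotated cell types (horizontal axis), as log10(mean CPM + 1) over the libraries with at least 20 cells of the type; the 19th type, PE, had no such library. The CD IC/CD Trans column is the brightest for 23 members, and Slc4a4 is brightest in PTc.

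The isoform with the largest share of the pump's RNA in intercalated cells was Atp6v1g3, a G subunit that helps hold the stator of the V1 sector. Its gene lies at chr1:138273738-138289462 (GRCm38, plus strand). It stood at 6487, 2737, 6026, 7464 and 3030 CPM. Both mixed libraries lay below the other 3, and the genotypes overlapped. The next type, DCT, had 85.8 ± 43.5 CPM (SD, n = 5), and red blood cells, used here as a measure of free RNA, had 48.0. Red blood cell means rest on 4 libraries, as WT mix had only 11 such cells. Hbb-bs alone took 314711 CPM there, which lowers the CPM of every other gene in that type. After each cell was thinned to 1000 UMIs, 92.4% of CD IC/CD Trans cells had an Atp6v1g3 UMI (95% exact binomial interval 89.1 to 94.9%, counting error only), beside 4.69% of DCT, 2.70% of CD PC and 5.27% of red blood cells.

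The other isoforms known from intercalated cells had lower levels and also peaked there. Atp6v0d2, a d subunit of the V0 sector, had 555 ± 61.5 CPM in CD IC/CD Trans cells (n = 5) and 11.1 ± 4.78 in DCT. Atp6v1c2, a C subunit that links the sectors, had 358 ± 85.9 CPM against 33.6 ± 12.2 in DCT. Atp6v1b1, the B1 subunit of the catalytic head, whose loss causes distal renal tubular acidosis with deafness in people, had 342 ± 49.5 CPM, followed by CD PC at 115 ± 20.8, DCT at 71.7 and LOH at 56.9, and by 2.73 in glomerular endothelium. All 5 libraries had more of each of these 3 genes in CD IC/CD Trans cells than in the next type.

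The counterparts of these isoforms in other cells were less restricted. Atp6v1b2, the B2 subunit, was highest in PTc (204 ± 44.2 CPM) and had 65.2 in CD IC/CD Trans cells, close to the 65.7 in red blood cells. Atp6v1g1 was highest in PT1 (1057 ± 138) and had 349 in CD IC/CD Trans cells, where red blood cells had 394. Atp6v1c1, the C1 subunit, ran from 24.7 CPM in red blood cells to 75.2 in PTc, and Atp6v0d1, the d1 subunit, from 28.8 in T and NK cells to 107 in myeloid cells, with 70.9 ± 20.9 in CD IC/CD Trans cells. Of the G subunit known from neurons, Atp6v1g2, the highest mean was 5.73 CPM, and Atp6v1e2 had 3 UMIs in all cells together.

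Expressed as the share of a subunit family's UMIs, the kidney-enriched isoform took most of the RNA in CD IC/CD Trans cells in every library. B1 made up 84.4% ± 4.4 of B subunit UMIs there, 64.7% ± 4.5 in CD PC, 47.8% ± 6.9 in DCT and 51.1% ± 9.0 in LOH, but 0.168% in PTc. G3 made up 92.8% ± 2.7 of G subunit UMIs, and 20.7% in DCT and 14.3% in CD PC. C2 took 89.8% ± 1.6 of C subunit UMIs, with 41.4% in DCT and 38.9% in LOH, and d2 took 88.8% ± 2.4 of d subunit UMIs, with 13.99% in DCT. B1 thus held an intermediate share through the distal nephron, where d2 and G3 held a small one. The a subunit genes among the members, Atp6v0a1, Atp6v0a2 and Atp6v0a4, showed no such switch. Atp6v0a4, the a4 isoform of acid-secreting epithelia, held 94.6% ± 1.9 of their UMIs in CD IC/CD Trans cells, 86.1% in DCT and 82.5% in PTc. Any a subunit gene outside the members was not counted in these shares. The a1 and a2 isoforms, Atp6v0a1 and Atp6v0a2, which serve lysosomes and the Golgi, had at most 55.9 CPM in any type.

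**Figure D2:**
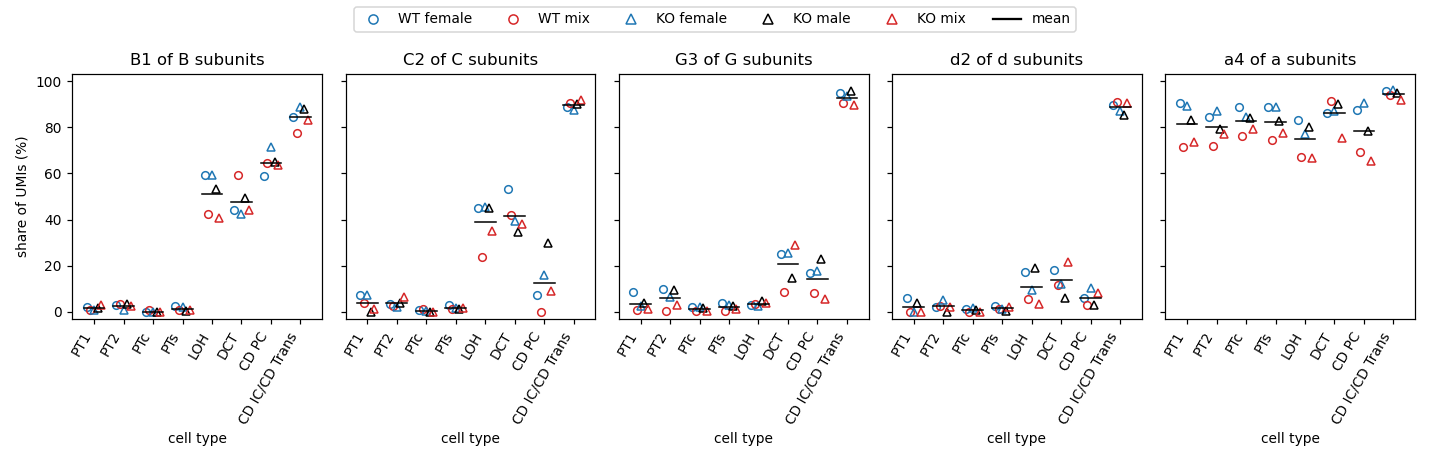
Share of each kidney-enriched isoform in the UMIs of its subunit family in percent (vertical axes) in 8 cell types (horizontal axes), 1 point per library, coloured by run (run 2 blue or black, run 3 red) and shaped by genotype (wild type a circle, knockout a triangle); bars are means. In CD IC/CD Trans cells all shares lie above 77%, B1 has intermediate shares in LOH, DCT and CD PC, and a4 is above 60% in all 8 types. The a family counted here holds Atp6v0a1, Atp6v0a2 and Atp6v0a4 only.

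Subunits with a single gene for the epithelium were present in every type and higher in CD IC/CD Trans cells. The proteolipid c subunit Atp6v0c, which forms the ring that carries protons, had 2738 ± 169 CPM, 3.38 times the 811 ± 71.9 of PTc. The catalytic A subunit Atp6v1a had 1384 ± 215 CPM, against 602 ± 28.3 in DCT and 530 in CD PC. The E1 subunit Atp6v1e1 had 1485 ± 576, against 767 ± 226 in PT1. The V0 subunits Atp6v0b and Atp6v0e had 838 ± 146 and 1368 ± 361, and the V1 subunits Atp6v1d and Atp6v1h 523 ± 91.2 and 223 ± 11.6, with CD PC at 321, 925, 148 and 114 in turn. For the F subunit Atp6v1f the SDs of CD IC/CD Trans cells (1373 ± 210 CPM) and CD PC (1203 ± 227) overlapped. CD IC/CD Trans was above CD PC in 4 of 5 libraries. Atp6v0e2, the second e isoform, had at most 32.3 CPM in any type. The annotation has 2 pseudogenes named after Atp6v0c, and how reads were split with them was not tested. Atp6v0a4 overlaps Tmem213 on the opposite strand, Atp6v1c2 overlaps Pdia6 and Atp6v1b2 overlaps Slc18a1, and the sources used here do not say whether counting used the strand. The accessory subunits Atp6ap1 and Atp6ap2, the latter also the prorenin receptor, had 284 ± 31.2 and 726 ± 234 CPM, again highest in CD IC/CD Trans cells.

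Foxi1, the transcription factor required for intercalated cells, had the lowest mean of the members listed as markers of these cells. It had 123, 340, 116, 123 and 285 CPM, so both mixed libraries were above the others. DCT followed with 5.67 ± 7.61 CPM. After thinning, 18.6% of CD IC/CD Trans cells had a Foxi1 UMI, 0 of the CD PC cells and 0.344% of red blood cells.

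The exchangers that tell intercalated cells apart followed. Slc26a4, or pendrin, had 431 ± 50.5 CPM, Slc4a1, the chloride-bicarbonate exchanger AE1, 284 ± 89.2, and Slc4a9, or AE4 of type B cells, 247 ± 44.0. The next type stood at 6.98 CPM for Slc26a4 (DCT), 9.35 for Slc4a1 (red blood cells, which carry the protein themselves) and 5.15 for Slc4a9 (CD PC). Glomerular endothelial cells had 1.43 CPM of Slc4a1.

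At equal depth, Slc4a1 and Slc26a4 were not found in the same cell. With each of the 354 cells thinned to 1000 UMIs, 80 had Slc4a1, 82 had Slc26a4 and 0 had both, which allows a share of up to 3.75% of the Slc4a1 cells (3 counts, counting error only). Of the cells without Slc4a1, 29.9% had Slc26a4. Slc4a9 was less divided: it was found in 13.8% of Slc4a1 cells, in 22.3% of the other cells and in 37.8% of Slc26a4 cells. Without thinning, 17.5% of the 177 cells with Slc4a1 had Slc26a4 and 52.0% had Slc4a9, but those with both kinds of exchanger were deeper, with a median of 7577 UMIs beside 4218 in cells with Slc4a1 alone and 5206.5 in cells with Slc26a4 or Slc4a9 alone. Cells with none of the 3 had a median of 1610. These are shares of cells with a UMI and not of cells that use a gene.

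Cells with Slc4a1 alone (79) were then compared with cells that had Slc26a4 or Slc4a9 but no Slc4a1 (130), to ask which other members go with each exchanger. Left out were 98 cells with both kinds of exchanger and 47 with none. The cells were not thinned for this, so the depth of a cell enters its class. Counts were summed per library and class, with at least 7 cells each, and tested with edgeR with the library as a block, leaving out the 3 exchangers. Of the 1353 genes tested, 3.47% were called at an adjusted p (Benjamini-Hochberg) under 0.05, and 2.37% were called lower with Slc4a1. Among the 23 members tested, 4 were called, all of them lower in the Slc4a1 cells; their median log2 fold change was -0.20, beside 0.03 for all genes.

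Among the members, the largest difference was in Car15, a membrane-bound carbonic anhydrase. In Slc4a1 cells it had 966, 538, 728, 593 and 677 CPM, and in Slc26a4 or Slc4a9 cells 5291, 1623, 3967, 3444 and 1895. The classes did not overlap within or across libraries, with a log2 fold change of -2.10 (SE 0.18, edgeR adjusted p = 1.51e-06). Car12, another membrane carbonic anhydrase, was between 308 and 476 CPM in Slc4a1 cells and between 935 and 1138 in the other class, a log2 fold change of -1.38 (SE 0.13, edgeR adjusted p = 7.24e-07). Atp6ap2 fell by 0.65 (SE 0.13, edgeR adjusted p = 0.00625) and Atp6v1g3 fell by 0.71 (SE 0.15, edgeR adjusted p = 0.0101), each lower with Slc4a1 in 5 of 5 libraries. Atp6v1g3 was not called without WT mix (-0.62) or without KO male (-0.63).

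Other members of the pump did not pass this test, among them Atp6v1b1 with a log2 fold change of -0.10 (SE 0.17) and Atp6v0a4 with -0.09 (SE 0.12), nor did cytosolic Car2 with 0.01 (SE 0.12). The ammonia transporters Rhbg and Rhcg had 0.53 (SE 0.14, edgeR adjusted p = 0.0513) and 0.45 (SE 0.16, edgeR adjusted p = 0.161). Among the 12 further factors and markers of intercalated cells, 8 were tested and 5 were called: Aqp6, Kit and Adgrf5 were higher with Slc4a1, and Insrr and Spink8 were lower. Aqp2, the water channel of principal cells, stood at 1126 ± 831 CPM in Slc4a1 cells and 562 ± 491 in the other class, and the part of principal cell RNA in these differences was not tested.

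**Figure D3:**
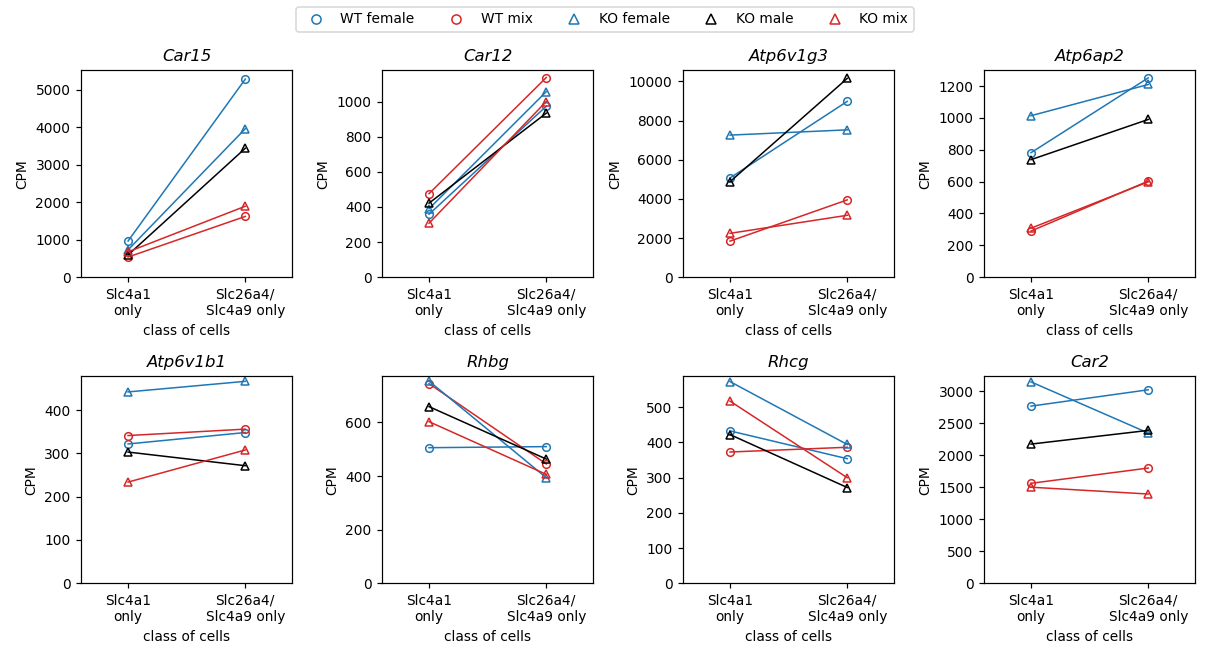
CPM (vertical axes, from 0) of 8 members in CD IC/CD Trans cells with Slc4a1 alone and in cells with Slc26a4 or Slc4a9 alone, with 1 line per library. Car15 and Car12 rise from left to right in all 5 libraries, Atp6v1b1 rises in 4 of 5 and Car2 in 3 of 5, and Rhbg and Rhcg run downward in 4 of 5 libraries.

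The ammonia transporters were shared with principal cells. Rhcg, the apical one, had 423 ± 70.6 CPM in CD PC, 389 ± 34.3 in CD IC/CD Trans cells and 149 in DCT. The SDs of the first 2 overlapped, and CD PC was above CD IC/CD Trans in 4 of 5 libraries. Rhbg, on the basolateral side, had 533 ± 29.0 in CD IC/CD Trans cells, 254 ± 49.8 in CD PC and 76.8 in DCT. LOH had 2.61 CPM of Rhcg and 2.14 of Rhbg, below the 8.16 and 6.05 of red blood cells.

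Of the carbonic anhydrases, Car2, the cytosolic form, was the most abundant in CD IC/CD Trans cells, with 2162 ± 549 CPM, and had 1123 ± 217 in CD PC. Car12 had 645 ± 97.6 CPM in CD IC/CD Trans cells and 192 ± 33.9 in PTc. Car15 had 1704 ± 618 CPM in CD IC/CD Trans cells, 1068 ± 618 in LOH and 960 ± 353 in CD PC, with SDs that overlap, although CD IC/CD Trans was above LOH in 5 of 5 libraries. Car4, a lipid-anchored form that faces the lumen, was highest in PTs (221 ± 105) and LOH (138 ± 16.8).

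The transporters of filtered bicarbonate peaked outside the collecting duct. Slc4a4, the sodium-bicarbonate cotransporter NBCe1, had 2273, 1641, 2144, 2166 and 1511 CPM in PTc, with the mixed libraries lowest. PT2 (1140 ± 235) and PTs (1093 ± 276) followed and did not differ beyond their spread, while PT1 had 375. Red blood cells had 411 and glomerular endothelial cells 290, and CD IC/CD Trans cells 98.6, below both. Slc9a3, the sodium-proton exchanger NHE3, was highest in LOH (171 ± 33.4 CPM), 2.78 times its level in PTc (61.4 ± 9.85), and PT2 and PTc did not differ beyond their spread.

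Other genes of acid-base handling were taken from 6 lists of 67 genes, of which 62 were in the matrix. Ammonia formation was led by Pck1 in the summed proximal cells, with 6518, 1557, 5818, 1776 and 1324 CPM, so that the libraries of females alone were highest. Among genes of V-ATPase assembly Dmxl1 led in CD IC/CD Trans cells (377 ± 62.9, beside 90.7 in CD PC), and among the intercalated cell factors outside the members Tfcp2l1 led (1086 ± 165, beside 759 in CD PC). The exchangers outside the members were low there, led by Slc4a2 with 40.5 ± 11.9 and Slc9a3r1, a regulator of Slc9a3, with 86.6 ± 20.7. Of the other carbonic anhydrases, Car5b, a mitochondrial form, led with 37.4.

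The study compared Fame knockout with wild type, and no member passed the test between the genotypes in any cell type. Each of the 11 types with at least 2 libraries of each genotype was fitted with edgeR over all of its genes, between 1654 and 10342. The share of genes called was 0% in each, and between 2 and 59 genes had an unadjusted p under 0.05. In each type that was fewer than a threshold of 0.05 gives when no gene differs. The fit held genotype alone, so differences between runs and sexes stayed in its spread. A genotype effect could therefore be missed. The members were tested in 265 pairs of gene and type, with 34 of the 36 tested at least once; Atp6v1e2 and Atp6v1g2 were too low. Of these pairs 0 were called, and 1 had an unadjusted p under 0.05. DESeq2 also called 0 members.

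That pair was Car2 in DCT. It had 54.5, 37.8, 89.9, 77.3 and 172 CPM. Each knockout library was above both wild type libraries, with a log2 fold change of 1.17 (SE 0.44), but the edgeR adjusted p was 1.0. Glomerular endothelial cells, used as a measure of free RNA, had 251, 121, 277, 181 and 141 CPM of Car2, which was more than DCT in each library but KO mix.

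In CD IC/CD Trans cells 31 members were tested. Of these, 24 had a positive log2 fold change, with a median of 0.10 beside 0.02 for all 5879 genes. They ran from -0.61 (SE 0.37) for Atp6v1b2 to 0.42 (SE 1.0) for Car4. Slc4a1 had -0.41 (SE 0.34), Slc26a4 0.26 (SE 0.32), Atp6v1b1 -0.04 (SE 0.32) and Foxi1 -0.29 (SE 0.52). The other lists had 0 genes called in this type. The difference of the genotype effect between CD IC/CD Trans and CD PC was tested as an interaction, with 0 of 31 members and 0% of 6464 genes called (306 at an unadjusted p under 0.05).

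Shares of cells and isoforms were compared over libraries. B1 made up 84.5, 77.7, 88.6, 88.0 and 83.3% of B subunit UMIs, a difference of 5.52 percentage points (exact two-sided permutation p = 0.3). Thinned cells with Slc4a1 and neither other exchanger made up 42.9, 45.7, 37.5, 36.4 and 22.2% of the cells with any of the 3. Each knockout library was below both wild type libraries, by 12.3 points in the means (exact permutation p = 0.2), where 0.1 is the smallest p that 2 against 3 libraries allow. Without thinning the genotypes overlapped, with 26.8% in KO male and 25.3% in WT female. These shares rest on between 22 and 54 such cells, and the 95% exact binomial intervals of KO mix (12.04 to 35.6%) and WT mix (28.8 to 63.4%) overlapped. CD IC/CD Trans cells made up 3.47%, 1.85%, 2.14%, 2.73% and 2.58% of the libraries in the order above, a difference of -0.17 points (exact permutation p = 0.9).

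More members differed between the sequencing runs. This comparison was chosen after the levels were seen and has genotype in the model. In CD IC/CD Trans cells 24.4% of 5879 genes were called between the runs, 13.6% lower and 10.7% higher in run 3. Of 31 members 12 were called, 10 of them lower in run 3; the median log2 fold change was -0.24, beside 0.01 for all genes. Whether the run, the mixing of sexes or the handling of the kidneys set these differences cannot be told apart.

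Atp6v1g3 was lower in run 3 by a log2 fold change of -1.32 (SE 0.13), Atp6v1e1 by -1.28 (SE 0.12), Atp6ap2 by -1.03 (SE 0.13) and Atp6v0a4 by -0.89 (SE 0.13). Atp6v1e1, for instance, had 1942, 1975 and 1789 CPM in WT female, KO female and KO male, and 872 and 846 in WT mix and KO mix. Atp6v0e (-0.87, SE 0.12) and Car2 (-0.83, SE 0.11) were lower as well, and Foxi1 was higher in run 3 by 1.22 (SE 0.18). These 7 kept their calls with each library left out in turn, with edgeR adjusted p between 1.0e-06 and 0.000102 in the full fit. B1 (-0.03, SE 0.16), d2 (-0.25, SE 0.15) and the exchangers Slc26a4 (-0.07, SE 0.15), Slc4a1 (0.11, SE 0.20) and Slc4a9 (-0.16, SE 0.18) did not pass this test. The other 5 called members each lost the call with at least 1 library left out, at log2 fold changes on both sides of the full value or near it: Atp6v0b (-0.49, and -0.55 to -0.40 where lost), Atp6v1f (-0.50, and -0.50 to -0.49), Atp6v1d (-0.54, and -0.71 to -0.42), Atp6v1c2 (0.45, and 0.28 to 0.58) and Car15 (-0.99, and -1.06 to -0.61).

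Other types were compared in the same way. Atp6v0a4 had a negative log2 fold change in 11 of 11 types and was called in 8 of them, and Atp6v1e1 in 10 of 11 types with 7 calls. In LOH 12 of 28 members were called (24.1% of all genes), in CD PC 7 of 24 (22.9%), in DCT 7 of 27 (16.8%) and in glomerular endothelium 8 of 25 (26.8%). Atp6v1g3 was called lower in PT1, PTc and CD PC but had 0.14 in LOH, where it was not called. Its mean was 16.3 CPM in the summed proximal cells and 65.2 in CD PC, with LOH no higher than CD PC. Red blood cells had 48.0 and CD IC/CD Trans cells 5149. The part of free RNA in these values was not tested. In DCT 4 of the 7 were higher in run 3, namely Rhbg, Slc4a4 (0.86, SE 0.22), Car2 (0.85, SE 0.25) and Rhcg (0.62, SE 0.21). Rhbg there had 27.8, 32.4 and 34.1 CPM in the libraries of run 2 and 157 and 132 in those of run 3, a log2 fold change of 2.33 (SE 0.28, edgeR adjusted p = 1.51e-14). Red blood cells were much rarer in run 3, with 11 and 41 cells beside 160 to 427, and their part in these values was not tested. The run difference of CD IC/CD Trans cells was set against that of LOH, where 7 of 34 members differed (2.05% of 8103 genes), and against that of CD PC, where 0 of 31 did (0.0309% of 6464 genes, with 3 members and 337 genes at an unadjusted p under 0.05). Among the 7, Atp6v1g3 differed most from LOH, by -1.48 (SE 0.31, edgeR adjusted p = 0.0308), and members that were not called had values as far as -3.24 (SE 1.37, Slc4a1).

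**Figure D4:**
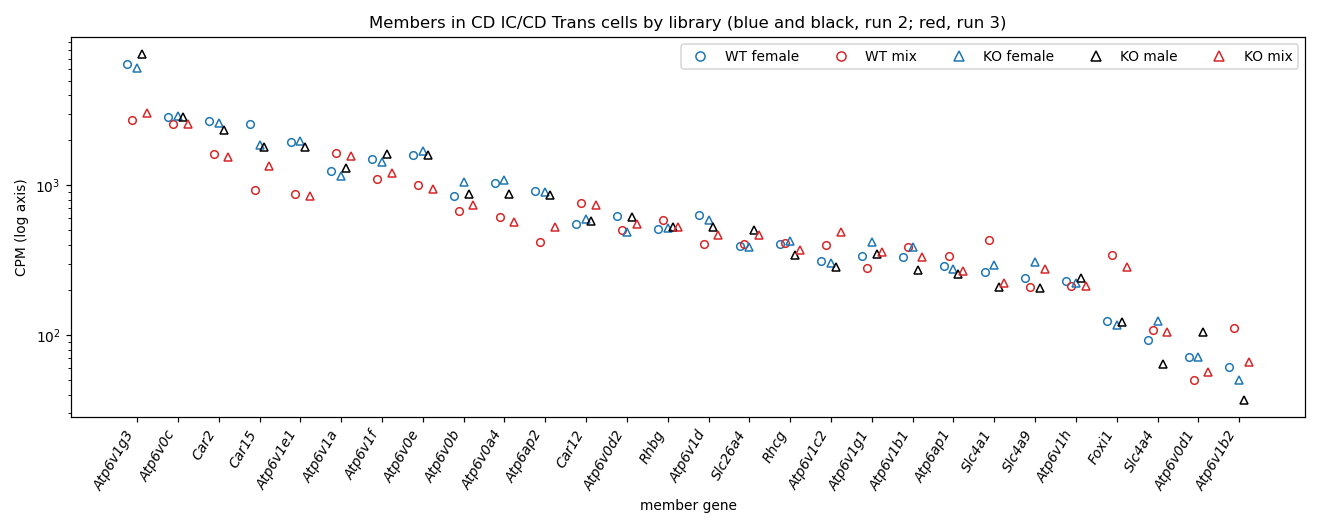
CPM (vertical axis, log scale) of the 28 members with a mean of at least 60 CPM in CD IC/CD Trans cells, ordered by their mean, with 1 point per library, red for run 3 and blue or black for run 2, and a triangle for knockout or a circle for wild type. The red points of Atp6v1g3, Atp6v1e1, Atp6ap2 and Car2 lie below the others, and those of Foxi1 above. The genotypes overlap for 26 of the 28 members, and do not for Atp6v1g1 (knockout higher) and Atp6ap1 (knockout lower). Neither passed the edgeR test, with log2 fold changes of 0.35 (SE 0.32) and -0.13 (SE 0.30). The share of all genes without overlap was not counted. With 2 against 3 libraries the smallest exact permutation p is 0.1, so separation alone is a description only.

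Sex differences were called in the proximal tubule, among the types compared (PTs, PTc and LOH). The sex of single cells was read from Xist and from 4 Y-linked genes: 0 cells of WT female and KO female had a Y-linked UMI and 0 cells of KO male had Xist, as labelled. Among PTs cells this gave 94 with Xist and 216 with Y-linked UMIs in WT mix, and 280 and 121 in KO mix; 12 and 10 cells had both and were left out, as were those with neither. Cells with Xist and with Y-linked UMIs were compared in edgeR with genotype and run in the model, over 7 sums from 5 libraries. The comparison was chosen after the levels were seen. Both sums of a mixed library come from the same library, and this fit did not pair them. In the mixed libraries alone, with the library as a block, 6 members were called in PTs. In PTs 10 of 25 members were called (23.6% of 7987 genes), 3 higher in cells with Xist (11.3%) and 7 lower (12.3%). In LOH 0 of 16 members and 0 of 1563 genes were called. The other types were not compared.

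Car2 was the clearest. In PTs cells with Xist it had 831 CPM (WT female), 749 (KO female), 416 (WT mix) and 384 (KO mix). In cells with Y-linked UMIs it had 144 in WT mix, 128 in KO mix and 130 in KO male. Every female sum was above every male one, with a log2 fold change of 1.82 (SE 0.17, edgeR adjusted p = 2.82e-06). Within the mixed libraries alone, with the library as a block, it was 1.42. In PTc Car2 did not pass the test (0.02, SE 0.13), with 532 (WT mix) and 496 (KO mix) CPM in cells with Xist and 629 and 632 in cells with Y-linked UMIs. The libraries of a single sex ran the other way there, with 809 (WT female) and 775 (KO female) against 576 (KO male). The sex difference of Car2 in the mixed libraries was larger in PTs than in PTc by 1.73 on the log2 scale, and 4 of 22 members differed in this way (2.9% of 6405 genes).

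Slc4a4 was also higher in PTs cells with Xist, with 1190 against 836 CPM in WT mix and 1137 against 750 in KO mix (log2 fold change 0.41, SE 0.09, edgeR adjusted p = 0.00215). Car15 rose by 2.15 (SE 0.31, edgeR adjusted p = 2.15e-05), with 3.78 to 4.15 CPM in the male sums and 9.59 to 38.6 in the female ones, on as few as 3 UMIs, and was not called without KO male (1.43). Car12 was lower, with 46.2 against 102.2 CPM in WT mix and 53.1 against 104.3 in KO mix, while KO male had 82.2 and the female libraries 79.6 and 77.8 (-0.67, SE 0.17, edgeR adjusted p = 0.00791), and so was Atp6v0e (-0.57, SE 0.11, edgeR adjusted p = 0.000777). Atp6v1a, Atp6v1d, Atp6v1h and Atp6v0d1 had log2 fold changes of -0.40, -0.50, -0.64 and -0.41. Car2 and Atp6v0e kept their calls with each library left out, while Slc4a4 (0.42 without WT mix, 0.40 without KO mix), Car12 (-0.58 without KO mix) and these 4 each lost theirs at least once. Among the other lists, 10 of 27 genes tested were called, all higher with Xist, among them Slc7a8 (2.52), Slc9a2 (1.49) and Pck1 (1.24).

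Car4 rested on 1 library in PTs. It had 402 CPM in KO male cells with Y-linked UMIs, 178 in WT mix and 200 in KO mix, and between 150 and 180 in cells with Xist (-0.86, SE 0.25, edgeR adjusted p = 0.0493; -0.29 without KO male, not called). In PTc it was the only member called of 24 (5.97% of 6965 genes), with -1.30 (SE 0.20, edgeR adjusted p = 1.8e-05), and was not called without KO male (-0.85) or in the mixed libraries alone (-0.76).

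**Figure D5:**
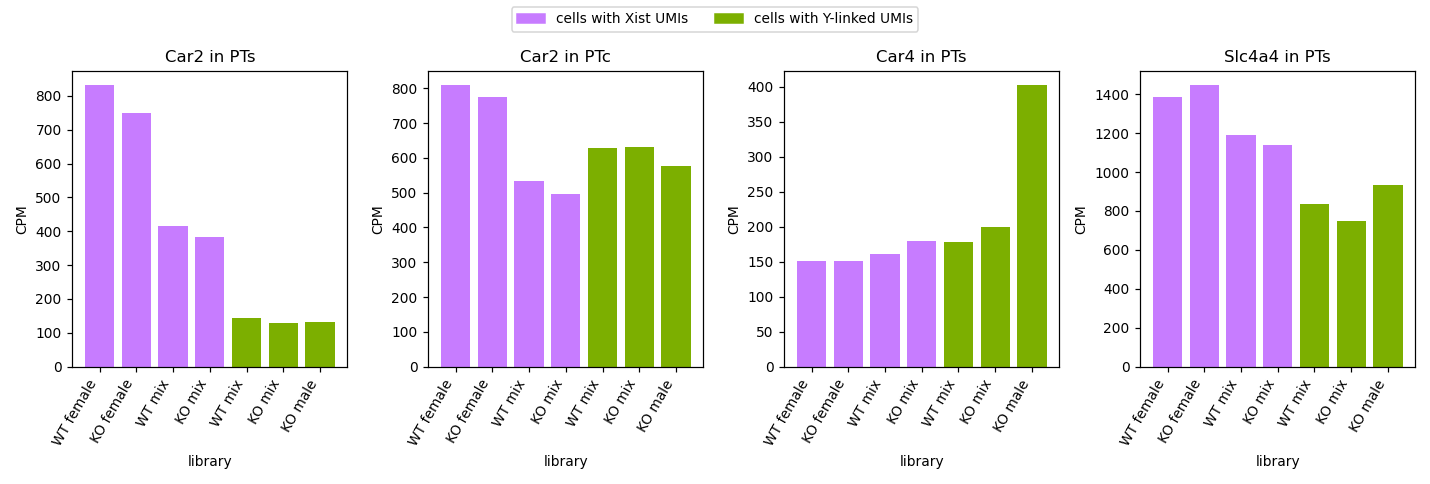
CPM (vertical axes, from 0) of Car2 in PTs and PTc and of Car4 and Slc4a4 in PTs, in cells with Xist UMIs (violet) and with Y-linked UMIs (green) of each library (horizontal axes), 1 bar per sum of cells. Car2 in PTs lies at 384 or above in all violet bars and at 144 or below in all green ones; Car4 is set apart by KO male alone.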

How the data were processed

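Single-cell suspensions of mouse kidney were profiled with 10x Genomics 3′ chemistry. The authors deposited raw UMI counts per gene and cell, made with Cell Ranger 4.0.0 on mm10 and filtered and clustered in Seurat 3.2.2.9001, per the labels. The deposited annotation gave the cell type, library, run, the percent of mitochondrial UMIs and the doublet score of each cell, both computed by the authors. No doublet caller was run here. Another 3 of its columns and the embedding were not used. The lowest total in the matrix was 1001 UMIs per cell and the highest mitochondrial share 49.98%.

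Counts were summed per library and type and tested with edgeR 4.0.16 (TMM, filterByExpr, robust quasi-likelihood, two-sided, Benjamini-Hochberg over all genes of a fit, threshold 0.05) in R 4.3.3, or compared over libraries by exact permutation. The fits were tested on simulated data. Members, lists and comparisons were chosen with earlier results of these data known, and every member is named. By the rule for named genes, the other lists are named by their highest genes in CD IC/CD Trans and proximal cells and by genes called, of which some leading ones are printed and 1 is not reported here. The comparisons of runs, exchanger classes and sexes were added after seeing the data. For shares of cells, each cell was thinned at random to 1000 UMIs. Alternatives were DESeq2 1.42.0, no filter on low counts, the run or the sex composition as a block, at most 25% mitochondrial UMIs, at least 2000 UMIs and each library left out. Gene positions came from GENCODE M21 (GRCm38), where all 36 members matched. Intervals cover counting error only.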

Additional observations from a re-analysis of the deposited data

Results flagged for a closer look

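In 11 cases, the effect of the run or of sex on a member differed between cell types by a test of the difference itself (edgeR, Benjamini-Hochberg adjusted p under 0.05). These tests were added after the levels were seen. Between CD IC/CD Trans and LOH, 7 of 34 members were called (2.05% of 8103 genes), each value being the log2 run difference (run 3 against run 2) in CD IC/CD Trans minus that in LOH. It was -1.48 for Atp6v1g3, -0.79 for Car2, -1.23 for Slc4a4 and -0.48 for Atp6v0c, and 0.42 for Atp6v1f, 0.78 for Car12 and 0.57 for Atp6v1a. Slc4a4 had between 64.5 and 123 CPM in CD IC/CD Trans cells, below the means of red blood cells (411) and glomerular endothelium (290). Atp6v1g3 in LOH was no higher than the 65.2 CPM of CD PC, beside 48.0 in red blood cells. The part of free RNA in the differences of Slc4a4 and Atp6v1g3 was not tested. Atp6v1a had 1578 and 1644 CPM in run 3 beside 1155 to 1298 in run 2 in CD IC/CD Trans cells, where it was not called (log2 fold change 0.25, edgeR adjusted p = 0.135), and was called lower in LOH (355 and 364 beside 484 to 532). Against CD PC, 0 of 31 members and 0.0309% of 6464 genes were called.

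The log2 difference between cells with Xist and cells with Y-linked UMIs in the mixed libraries was larger in PTs than in PTc by 1.73 for Car2 and 0.33 for Slc4a4, and smaller by -0.98 for Car12 and -0.70 for Atp6v0e (4 of 22 members, 2.9% of 6405 genes). Car2 was lower with Xist in PTc and higher with Xist in PTs in both mixed libraries. Which parts of the straight tubule the cells of each sex came from was not tested.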

How the results depend on the processing

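The count of members called between the genotypes stayed at 0 under all 11 alternatives, and so did that for the difference between CD IC/CD Trans and CD PC under its 6. With the sex composition as a replicate block, which ties the female libraries to each other and the mixed ones likewise and leaves KO male without a partner, 7 genes were called in CD IC/CD Trans cells and 93 over the 11 types, none of them members; the numbers give no paired analysis beyond this. Over the 11 types, 16 genes were called with no filter on low counts, 15 with the run as a block and between 0 and 25 with 1 library left out. The difference in the share of CD IC/CD Trans cells turned to 0.635 points without WT female, in a range of -0.984 to 0.635. B1 ranged from 2.10 to 8.94 points and the Slc4a1 class from -15.0 to -7.35.

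The members called between the runs ranged from 7 (without WT mix) to 13 of those tested, and those called between the classes from 3 to 5. In PTs, 6 members were called between cells with Xist and with Y-linked UMIs in the mixed libraries alone, 6 without KO male and 4 without KO mix, in a range of 4 to 10. In PTc 0 were called without KO male. The lone library left in an arm is then assumed to vary like the others. The cause of these changes was not tested. Depth limits members of few UMIs, such as Foxi1 (409 in CD IC/CD Trans cells).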
